A study of Mus musculus with 4 samples.

Results

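Expression in the fat pad beside the epididymis was compared between mice with an overloaded leg muscle and mice with sham surgery, all given GW4869. The comparison is the array labelled GW-SA minus the array labelled GW-Sham, taken gene by gene across 11703 genes of 19505 measured. Each gene is read from its annotated probe set, from the brightest one where it has several, and the 11703 are those whose mean over the 4 arrays exceeds log2 4.67, the 40th percentile, used as a floor. Of these, 3422 were called fat-expressed, meaning a level of at least log2 10 on the vehicle overload array and no place in a list of reproductive tract genes, and 94 belonged to the tract lists. The vehicle overload array takes no part in the GW4869 comparison, and it carried the lowest medians of the tract lists apart from the sperm and testis list.

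All 4 groups are epididymal adipose tissue of male mice, with total RNA hybridised in 1 colour to Affymetrix Clariom S Mouse arrays. GW-SA had GW4869 and synergist ablation, an operation that removes the partners of a muscle so that the muscle left behind carries their load, and GW-Sham had GW4869 and sham surgery. Veh-SA and Veh-Sham had the same operations with DMSO, the solvent, in place of GW4869. The sources used here give no strain, age, dose, route or time after surgery, and do not say if 1 mouse or a pool was hybridised to each array.

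White fat stores triglyceride that adipocytes take up or build from glucose, and it releases fatty acids when hormones raise cAMP. Insulin drives the building side through its receptor, the insulin receptor substrates and the glucose carrier GLUT4, while resident macrophages, vessels and matrix fill the space between the adipocytes. GW4869 inhibits neutral sphingomyelinase, an enzyme whose product ceramide helps to form the vesicles that cells shed. The epididymis, which lies against this fat pad, is a duct whose initial segment and caput secrete lipocalins, defensins and a glutathione peroxidase onto maturing sperm.

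Each group is a single array, so no difference has a replicate error or a test and each describes 2 arrays, a number that limits its precision. Differences are in log2 units on the deposited scale, and a gene is counted as higher or lower when its difference is at least 1.5-fold, 0.585 log2 units. Negative control rows had a 95th percentile between 9.01 and 9.27 on the 4 arrays and antigenomic background probes between 6.34 and 6.40, so a reading below these can lie within background and a difference from it is a bound at best. Adipoq, which encodes adiponectin, stood at 19.58 and 19.34 (vehicle 19.59 and 19.67) and Fabp4, the fatty acid carrier of adipocytes, at 19.91 and 19.92 (vehicle 19.90 and 19.74), so the labelled tissue's defining genes were high on every array. Levels such as these lie above the usual range of RMA values, and the sources used here do not say how the scale was made, so a fold is a fold on that scale and readings near its top may not be in proportion to RNA. Throughout, 2 values in a row are levels on the GW4869 sham and GW4869 overload arrays in that order, and the values in parentheses are the vehicle sham and vehicle overload levels.

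Over all genes above the floor, 1564 were higher on the overload array (13.4%), 1787 were lower (15.3%), 8352 lay between, and the median difference was -0.04. Fat-expressed genes were tilted further to the lower side, with 214 higher (6.25%), 561 lower (16.4%) and a median of -0.10. The tract lists had 61 of 94 genes higher and 13 lower with a median of 1.90. The remaining 8187 genes had 1289 higher and 1213 lower with a median of -0.01. Levels on the 2 arrays correlated at 0.945 across genes above the floor and at 0.956 across fat-expressed genes, which are not independent replicates. The tilt among fat-expressed genes depended on the scaling. The share of higher genes among those past 1.5-fold was 27.6% as deposited, 39.0% with the trend of differences with level removed, and 83.1% when both arrays were centred on the list of mature adipocyte genes.

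**Figure D1:**
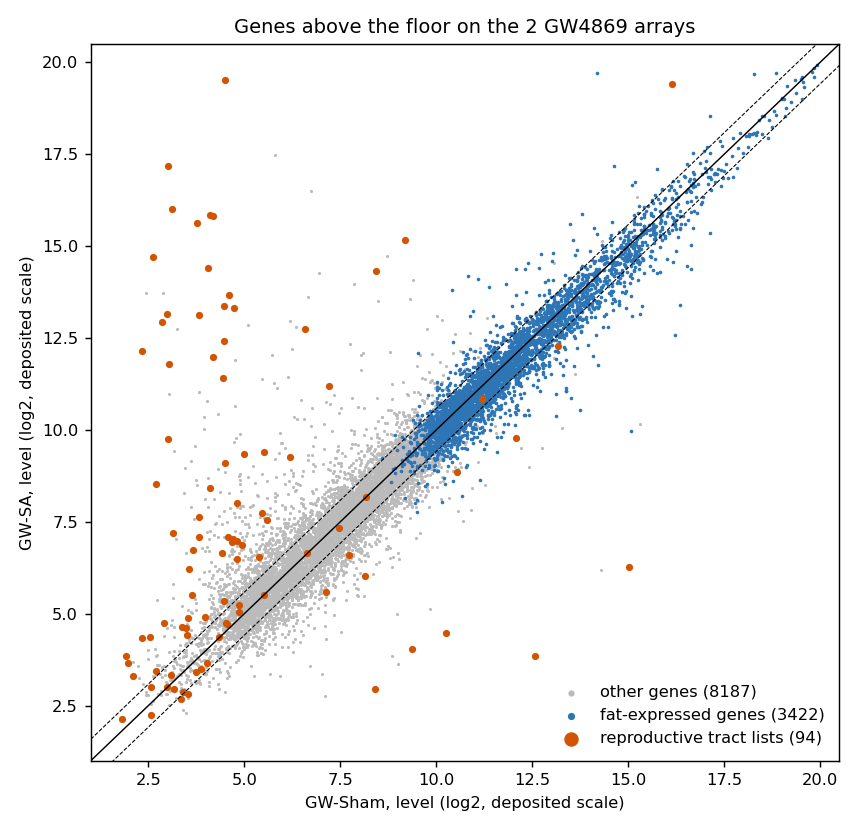
Level of each gene above the floor on the GW-Sham array (horizontal) against the GW-SA array (vertical), both log2 on the deposited scale, with lines at equality (solid) and 1.5-fold (dashed). Most fat-expressed genes (blue) lie along the diagonal, while 61 of 94 tract genes (orange) lie above the upper dashed line and 13 below the lower one.

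Among the 56 lists, the proximal epididymis had the largest median difference. Of 39 measured genes of this list, 30 were above the floor, 25 of them were higher on the overload array, 2 were lower, and the median difference was 8.68, or 5.78 over all 39. These genes passed the floor largely through the array on which they are high, so the count describes which transcripts are present there. On the overload array 18 of the 39 stood at log2 10 or more, against 1 on GW4869 sham, 1 on vehicle overload and 11 on vehicle sham.

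The luminal proteins of the initial segment and caput made up most of this set. Gpx5, a secreted glutathione peroxidase of the caput, stood at 4.51 and 19.53 (vehicle 4.18 and 3.97). Lcn8 and Lcn9, lipocalins that carry small lipophilic molecules in the duct, stood at 4.12 and 15.86 (vehicle 3.53 and 3.35) for Lcn8 and 4.60 and 13.68 (vehicle 4.82 and 5.17) for Lcn9. The overload array was high and the 3 others were at background. Spag11b, a defensin-like protein bound to sperm, stood at 3.01 and 17.17 (vehicle 3.79 and 3.07), and the cystatin Cst11 at 2.98 and 13.15 (vehicle 3.09 and 3.70). Ovch2, a secreted protease-like protein of the caput, stood at 2.63 and 14.70 (vehicle 2.58 and 2.90). Ros1, the receptor kinase needed for the initial segment to differentiate, stood at 4.51 and 9.09 (vehicle 3.80 and 3.35). For Spag11b, Cst11 and Ovch2 the overload array alone was high, and Ros1 was highest there but below the 95th percentile of negative controls, 9.27.

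A second set was shared with the vehicle sham array. Adam7, a membrane protein passed from the caput to sperm, stood at 3.11 and 16.01 (vehicle 14.64 and 2.92), and Lcn5 at 4.47 and 13.38 (vehicle 14.22 and 2.94). Wfdc10 stood at 4.74 and 13.33 (vehicle 12.85 and 3.87). Outside the tract lists, Cuzd1 stood at 6.73 and 16.49 (vehicle 18.09 and 7.50), and Ptgds, the lipocalin-type prostaglandin D synthase, at 6.20 and 12.97 (vehicle 13.58 and 5.03). Eppin, a protease inhibitor on the sperm surface, stood at 3.03 and 10.98 (vehicle 11.13 and 2.92). In total 15 genes stood at least 4 log2 units higher on both of these arrays than on either of the other 2. Genes at least 4 units above all 3 other arrays on GW4869 overload numbered 47, of which 20 were tract list genes and 1, Lcn2, was fat-expressed. Spint4 and Rnase9, which belong to the same list, stood at 4.34 and 4.36 (vehicle 15.55 and 4.78) for Spint4 and 6.63 and 6.65 (vehicle 13.43 and 6.69) for Rnase9. Those 2 were high on vehicle sham alone, so the proximal list was not uniformly high on GW4869 overload. Sult1e1, an estrogen sulfotransferase, was the lowest of the list at 12.09 and 9.77 (vehicle 10.87 and 11.11).

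**Figure D2:**
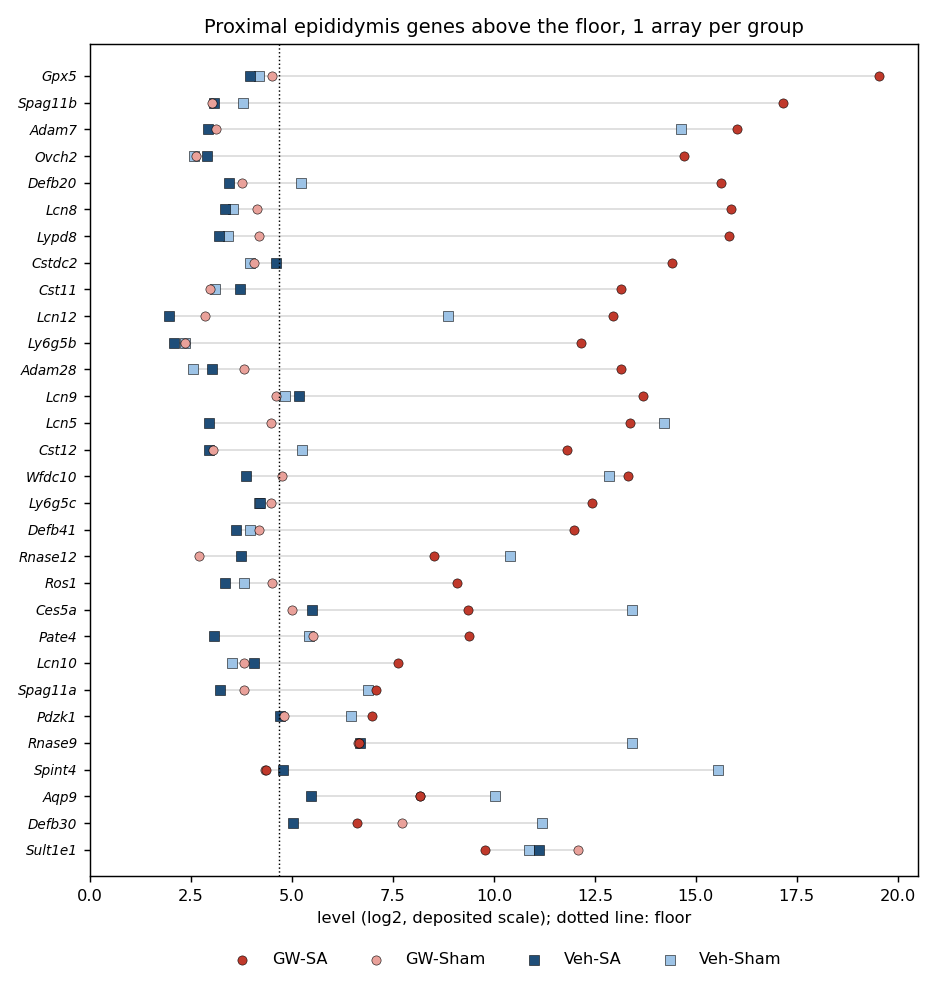
Levels (log2, deposited scale) of the 30 proximal epididymis genes above the floor on the 4 arrays, ordered by the difference GW-SA minus GW-Sham, with the floor as a dotted line. The GW-SA points (red circles) stand far to the right of the GW-Sham points for 25 genes, and for a part of them, such as Adam7, Lcn5 and Wfdc10, the Veh-Sham point (light blue square) stands beside them.

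Other parts of the male tract did not follow one pattern. All 8 genes of the seminal vesicle and prostate list above the floor were higher, with a median of 4.56 or 2.27 over the 13 measured. Pate14, at 3.01 and 9.75 (vehicle 4.79 and 3.29), and Svs3a, at 4.80 and 8.02 (vehicle 3.38 and 3.58), passed the floor only through the overload array. That count is therefore partly set by the floor. The seminal vesicle secretory proteins Svs2, Svs4 and Svs5 stood at 9.19 and 15.17 (vehicle 9.10 and 5.13) for Svs2, 6.59 and 12.75 (vehicle 5.50 and 5.05) for Svs4 and 8.42 and 14.32 (vehicle 7.05 and 4.39) for Svs5, and these 3 are related genes whose probe sets may share signal. Distal epididymis and vas deferens genes were split, with 11 of 25 higher, 8 lower and a median of 0.18. Serpina1f stood at 15.03 and 6.28 (vehicle 16.09 and 2.52) and Pcp4 at 12.57 and 3.84 (vehicle 12.05 and 4.24), high on both sham arrays. Spink12 and Spink2, protease inhibitors of the duct, stood at 4.44 and 11.41 (vehicle 8.87 and 4.50) for Spink12 and 4.12 and 8.42 (vehicle 12.29 and 3.85) for Spink2. The sperm and testis list had a median of 0.93 above the floor, and of 0.00 once readings below the floor were raised to it. Prm2, the protamine that packs sperm DNA, stood at 3.66 and 6.74 (vehicle 17.92 and 5.33), so on both GW4869 arrays it was far below vehicle sham.

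Genes of lining epithelium were higher on the overload array as a group. The list of epithelial keratins and junction genes had 21 of 23 members higher, 0 lower and a median of 2.75, against -1.99 under vehicle. Over the 28 measured the median was 2.52. Elf3 of this list passed the floor only through the overload array, so that count is partly set by the floor. Cdh1, which encodes E-cadherin, stood at 9.40 and 14.07 (vehicle 10.67 and 4.46), and the tight junction gene Cldn4 at 5.77 and 11.27 (vehicle 6.09 and 3.04). Epcam stood at 6.84 and 9.81 (vehicle 8.49 and 5.04). Ehf and Elf3, transcription factors of secretory epithelium, stood at 6.14 and 11.45 (vehicle 7.61 and 4.38) for Ehf and 3.98 and 8.12 (vehicle 4.15 and 4.28) for Elf3. Of the keratins, Krt8 stood at 8.09 and 12.08 (vehicle 8.86 and 6.76) and Krt18 at 8.04 and 11.62 (vehicle 9.05 and 6.01). Vehicle overload was the lowest array for Cdh1, Cldn4, Epcam, Ehf, Krt8 and Krt18. None of these genes was fat-expressed. Cldn1 and Dsg2, further genes of cell contacts, stood at 5.84 and 11.14 (vehicle 6.30 and 5.46) for Cldn1 and 4.06 and 8.69 (vehicle 4.52 and 3.92) for Dsg2. Fgg and Fga, chains of fibrinogen, stood at 2.43 and 13.72 (vehicle 2.49 and 2.14) for Fgg and 3.25 and 12.76 (vehicle 4.69 and 3.24) for Fga, while Fgb, the chain that completes the protein, stood at 4.46 and 4.27 (vehicle 3.62 and 4.60). Slc38a5, a glutamine carrier, stood at 5.79 and 17.47 (vehicle 6.41 and 6.31) and Muc15, a membrane mucin, at 2.89 and 13.73 (vehicle 6.17 and 2.40).

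Within the fat-expressed genes the lower calls were more frequent at high levels. Genes between log2 10 and 12 on vehicle overload had 14.3% lower and 6.90% higher of 1972, those between 12 and 14 had 18.2% and 5.43% of 920, those between 14 and 16 had 21.3% and 4.80% of 375, and the 155 from 16 upward had 20.6% and 6.45%. The medians in these bins were -0.06, -0.12, -0.20 and -0.24. By 2 log2 units or more, 16 fat-expressed genes were higher and 19 lower.

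The 15 highest fat-expressed genes mixed stress, secretion and transport. Lcn2, a lipocalin that binds bacterial siderophores and is also secreted by epididymis, stood at 14.19 and 19.70 (vehicle 14.73 and 13.16), a difference of 5.51. Rnf149, a membrane ubiquitin ligase, stood at 10.41 and 13.81 (vehicle 9.40 and 10.81), and Adgrg2, an adhesion receptor known from the efferent ducts and epididymis, at 11.38 and 13.89 (vehicle 9.67 and 11.21). Mfge8, a milk fat globule protein also known from the epididymis, stood at 13.80 and 15.88 (vehicle 13.62 and 13.47). Tmem64 stood at 9.53 and 12.08 (vehicle 12.04 and 10.16) and Got2, the mitochondrial aspartate aminotransferase, at 12.39 and 14.55 (vehicle 14.15 and 11.64). On both, GW4869 overload and vehicle sham were the 2 high arrays. Lap3, a leucine aminopeptidase, stood at 12.08 and 14.39 (vehicle 11.55 and 11.99), and Sat1, the rate-limiting enzyme of polyamine breakdown, at 13.48 and 15.61 (vehicle 14.71 and 13.63). Pls3, an actin-bundling protein, stood at 11.83 and 13.98 (vehicle 12.64 and 11.48), and Apod, a lipocalin of lipid transport, at 12.72 and 14.80 (vehicle 12.31 and 12.41). Ndrg1, which responds to hypoxia and stress, stood at 10.89 and 13.09 (vehicle 10.76 and 11.03). The other 4 (Gclm, Hspb1, Hsp90aa1 and Dbp) belong to stress and clock lists described further on. Of the 15, 6 were at least 1.5-fold lower on vehicle overload than on vehicle sham.

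The 15 lowest were led by Abcg2, an efflux pump, at 15.08 and 9.98 (vehicle 15.52 and 11.17), and Fasn. Akr1b10, an aldose reductase relative, stood at 13.74 and 10.53 (vehicle 13.60 and 10.57), and Hpgd, which inactivates prostaglandins, at 16.35 and 13.41 (vehicle 16.05 and 14.05). Tagln, a smooth muscle actin-binding protein, stood at 14.22 and 11.76 (vehicle 13.92 and 10.45). For Abcg2, Akr1b10, Hpgd and Tagln both sham arrays were high and both overload arrays lower. Angpt1, a ligand that steadies vessels, stood at 11.13 and 8.63 (vehicle 8.79 and 10.57), and Cyp2f2 at 10.66 and 8.19 (vehicle 7.60 and 10.02). Ccl21a, a chemokine of lymphatic vessels, stood at 13.11 and 10.97 (vehicle 10.77 and 11.61). For these 3 GW4869 sham was the highest array and vehicle overload the next. Ccl21b and Ccl21c carried identical values, 13.38 and 11.06 (vehicle 10.56 and 11.80), and the 3 copies are near-identical in sequence, so they cannot be counted apart. Orm1, an acute phase carrier protein with close copies, stood at 11.59 and 9.39 (vehicle 11.23 and 11.51) and Trp53inp2, a regulator of autophagy, at 13.39 and 11.14 (vehicle 13.12 and 12.38). The other 3, Pnpla3, Hspb6 and Retnla, are described below with related genes.

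Fatty acid synthesis genes were lower along most of the pathway on the overload array. Of 18 list genes above the floor 10 were lower and 3 higher, and among the 14 that were fat-expressed 9 were lower, 0 were higher and the median was -1.68, against -0.10 over all fat-expressed genes. The median of the 18 was -1.15, and it was -0.76 when the arrays were centred on mature adipocyte genes. Beside these values stands the tract signal on the same array, and its part in the lipid genes was not tested. Mature adipocyte genes had 6 of 18 lower, 0 higher and a median of -0.40. In RNA of whole tissue, fewer adipocytes and less RNA of a gene per adipocyte cannot be told apart.

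In pathway order, Slc25a1, the carrier that exports citrate from mitochondria, stood at 16.63 and 15.04 (vehicle 16.25 and 16.61). Acly, which splits the citrate to acetyl-CoA, stood at 14.76 and 13.39 (vehicle 14.61 and 13.65), and Acss2, which makes acetyl-CoA from acetate, at 10.16 and 8.03 (vehicle 9.80 and 10.40). Acaca, the carboxylase that makes malonyl-CoA, stood at 13.31 and 11.49 (vehicle 13.11 and 13.15) and Fasn, the synthase that builds palmitate from it, at 16.22 and 12.58 (vehicle 15.93 and 15.65). The differences for Slc25a1, Acly, Acss2, Acaca and Fasn were -1.59, -1.38, -2.13, -1.82 and -3.64. For each of the 5 the GW4869 overload array was the lowest of the 4. Thrsp, a lipogenic nuclear protein also called Spot 14, stood at 17.13 and 15.35 (vehicle 16.80 and 16.81), a difference of -1.77. Aacs, which feeds ketone bodies into lipid synthesis, stood at 11.59 and 9.82 (vehicle 10.05 and 11.25).

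The steps that modify the finished chain did not share this size of difference. Scd1, the main desaturase of fat, stood at 19.85 and 19.61 (vehicle 19.74 and 19.73), and Elovl5 at 13.93 and 13.47 (vehicle 13.53 and 13.71). Fads1 stood at 12.01 and 11.71 (vehicle 11.75 and 11.16) and the reductase Tecr at 13.69 and 13.26 (vehicle 14.31 and 13.74). The differences of Scd1, Elovl5, Fads1 and Tecr were -0.25, -0.46, -0.29 and -0.43. Scd1 lies near the upper end of the deposited scale. The 3 higher members all lay below log2 10 on vehicle overload. Mid1ip1, a relative of Thrsp, stood at 7.07 and 10.16 (vehicle 7.88 and 6.25), and Elovl6, which elongates palmitate, at 11.13 and 12.24 (vehicle 10.63 and 9.44). The desaturase Fads2 stood at 14.31 and 15.14 (vehicle 14.87 and 9.89). For Fads2 the vehicle sham array was as high as the GW4869 pair and vehicle overload stood apart.

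Fatty acid synthesis consumes NADPH, and 3 of 8 genes of its supply were lower and 0 higher. Their median was -0.43, or -0.03 with centring on adipocyte genes. Me1, malic enzyme, which also belongs to the fatty acid synthesis list, stood at 15.11 and 13.11 (vehicle 14.72 and 14.81), a difference of -1.99. Idh1, the cytosolic isocitrate dehydrogenase, stood at 14.59 and 13.45 (vehicle 14.33 and 14.87) and Pgd, of the pentose phosphate route, at 13.50 and 12.67 (vehicle 12.31 and 12.96), with differences of -1.14 and -0.84. Among transcription regulators of lipogenesis 5 of 11 were lower and 1 higher. Mlxipl, which encodes the glucose sensor ChREBP, stood at 9.76 and 8.52 (vehicle 9.28 and 10.25), and Nr1h3, the oxysterol receptor LXR alpha, at 11.53 and 10.85 (vehicle 10.46 and 11.70). Insig1, which holds SREBP in the endoplasmic reticulum, stood at 11.80 and 10.47 (vehicle 11.13 and 12.01). Srebf2, the regulator of cholesterol genes, was the higher one at 11.17 and 11.81 (vehicle 11.04 and 10.86). The list median of -0.31 turned to 0.08 with centring on adipocyte genes. Cholesterol synthesis and uptake genes had 5 of 18 lower, 1 higher and a median of -0.35, which turned to 0.05 with that centring. Idi1, Sc5d and Cyp51 of that route stood at 8.46 and 7.02 (vehicle 8.44 and 7.58) for Idi1, 14.67 and 13.51 (vehicle 14.64 and 14.61) for Sc5d and 9.74 and 9.13 (vehicle 10.17 and 9.26) for Cyp51.

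Triglyceride assembly was uneven along its steps. Gpd1, which makes glycerol phosphate from a glycolytic intermediate, stood at 14.25 and 13.36 (vehicle 14.05 and 14.60), and Gpam, the acyltransferase of the entry step, at 15.09 and 15.04 (vehicle 14.12 and 15.95). Agpat2, which adds the next chain, stood at 16.17 and 14.58 (vehicle 16.01 and 16.02). Dgat2, which completes the triglyceride, stood at 16.54 and 14.45 (vehicle 16.45 and 15.86) while Dgat1, the other enzyme of that step, stood at 10.37 and 10.35 (vehicle 9.18 and 11.36). Mogat1, which starts from monoacylglycerol, stood at 9.50 and 7.76 (vehicle 9.34 and 10.10) and Pnpla3, a lipid droplet enzyme counted in the fatty acid synthesis list, at 13.52 and 10.86 (vehicle 12.91 and 13.33). The differences were -0.89 for Gpd1, -1.59 for Agpat2, -2.09 for Dgat2, -1.74 for Mogat1 and -2.66 for Pnpla3, against -0.05 for Gpam and -0.02 for Dgat1. The triglyceride list, without Pnpla3, had 4 of 13 lower and 1 higher with a median of -0.35, which turned to 0.05 when centred on adipocyte genes.

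Lipolysis genes differed little between the 2 arrays. Of 25 above the floor 2 were lower and 1 higher, with a median of -0.25 that turned to 0.14 with adipocyte centring. Under vehicle 14 of the same 25 were higher, 0 lower and the median was 0.60. The vehicle median was 0.26 over all genes above the floor and 0.32 over fat-expressed genes, of which 31.5% were higher. Pnpla2, the lipase of the first step, stood at 18.53 and 18.54 (vehicle 18.35 and 18.77) and its coactivator Abhd5 at 11.08 and 11.08 (vehicle 11.48 and 11.41). Lipe, hormone-sensitive lipase, stood at 17.42 and 17.06 (vehicle 16.94 and 17.85), and Mgll, which frees the last fatty acid, at 14.51 and 14.08 (vehicle 14.57 and 14.78). Plin1, the droplet coat protein that holds Abhd5, stood at 15.19 and 14.81 (vehicle 15.15 and 15.75). Ptger3, a prostaglandin receptor that lowers cAMP, was the lowest at 10.45 and 8.61 (vehicle 10.06 and 10.61), a difference of -1.84. Of the protein kinase A subunits, Prkaca stood at 12.78 and 12.30 (vehicle 13.00 and 13.25) and Prkacb at 10.18 and 10.94 (vehicle 9.95 and 10.60).

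**Figure D3:**
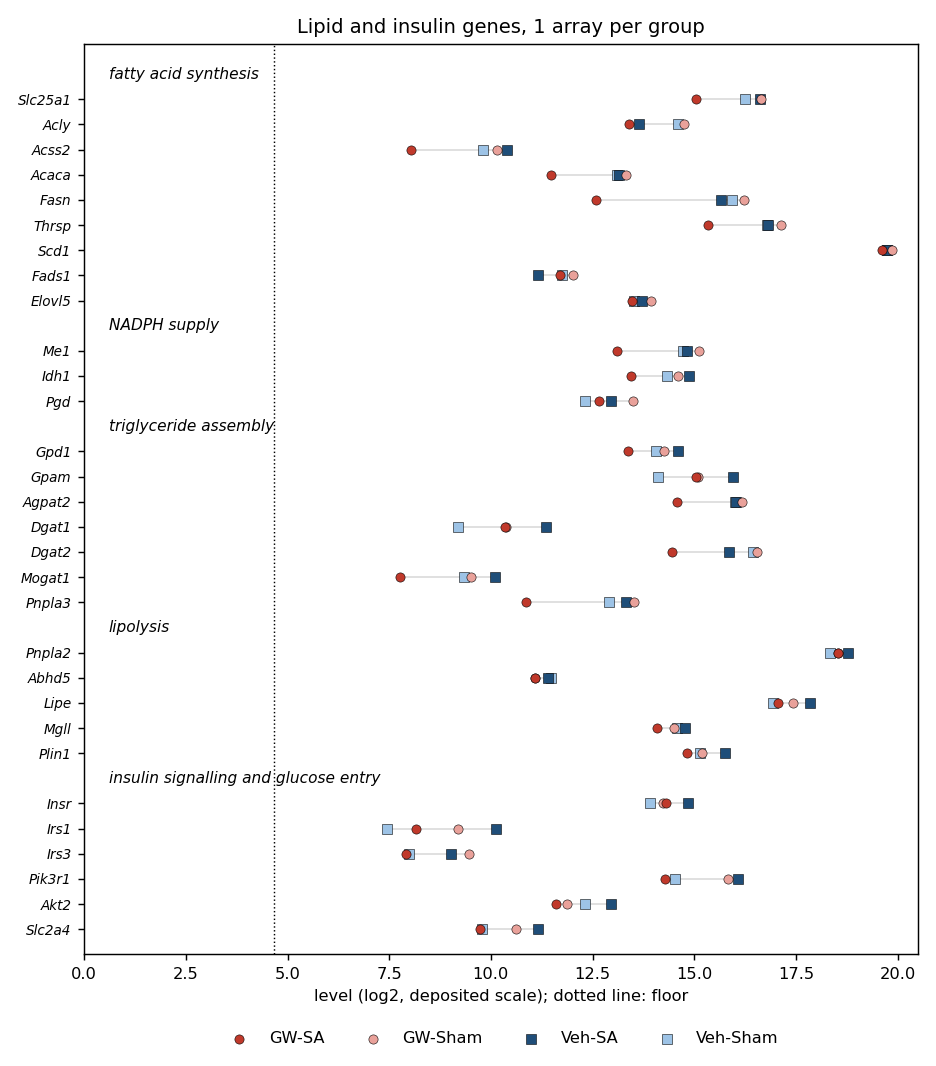
Levels (log2, deposited scale) of lipid and insulin genes on the 4 arrays, grouped by step, with the floor as a dotted line. The GW-SA point (red circle) is the lowest of the 4 for Slc25a1, Acly, Acss2, Acaca, Fasn, Me1 and Dgat2, with Fasn at 12.58 against 16.22 on GW-Sham, while the GW4869 pair coincides for Pnpla2 and Abhd5.

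Insulin signalling genes were lower for 2 of the receptor's substrates and for some later steps, while the receptor itself stood level. Insr, the receptor, stood at 14.24 and 14.31 (vehicle 13.92 and 14.85), a difference of 0.07. Of the substrates, Irs1 stood at 9.18 and 8.16 (vehicle 7.44 and 10.12) and Irs3 at 9.47 and 7.91 (vehicle 7.98 and 9.03), with differences of -1.02 and -1.56, while Irs2 stood at 11.61 and 11.64 (vehicle 11.54 and 12.25). On GW4869 overload Irs1 and Irs3 lay below the 95th percentile of negative controls, 9.27, so their differences are bounds at best. Pik3r1, the regulatory subunit of the lipid kinase, stood at 15.82 and 14.29 (vehicle 14.52 and 16.07), and Akt2 at 11.86 and 11.60 (vehicle 12.32 and 12.95). Foxo1, the transcription factor that Akt restrains, stood at 10.43 and 8.89 (vehicle 9.47 and 9.64). Slc2a4, the gene of GLUT4, stood at 10.63 and 9.74 (vehicle 9.77 and 11.15) and Tbc1d4, which holds GLUT4 back from the surface, at 12.36 and 11.74 (vehicle 11.30 and 12.71). Slc2a1, the glucose carrier of most cells, was the only higher member at 9.90 and 10.94 (vehicle 9.10 and 9.53). The list had 9 of 23 lower and 1 higher with a median of -0.37, which turned to 0.03 with adipocyte centring. Under vehicle 14 were higher and 2 lower with a median of 0.75, beside 0.26 over all genes above the floor. The 2 comparisons share no array, and the difference between them was not tested.

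Among secreted products of fat, 11 of 19 were lower and 1 higher with a median of -0.66, or -0.26 with adipocyte centring, which is short of 1.5-fold. Lep, the gene of leptin, stood at 15.75 and 14.27 (vehicle 15.45 and 15.19), and Rbp4, a retinol carrier, at 16.49 and 15.61 (vehicle 16.64 and 16.82). Angptl4, which inhibits lipoprotein lipase, stood at 16.23 and 15.56 (vehicle 14.54 and 15.25). Sfrp5, a Wnt antagonist, stood at 9.03 and 6.49 (vehicle 7.63 and 6.92), a difference of -2.54. Nampt stood at 11.90 and 11.00 (vehicle 10.95 and 11.94) and Vegfb, a growth factor of vessels, at 11.21 and 10.33 (vehicle 10.81 and 12.30). Vegfa, the main vessel growth factor, was the higher member at 12.01 and 12.90 (vehicle 12.13 and 13.25).

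Mitochondrial genes had small differences that ran mostly one way. Of 35 respiratory complex I subunits, 33 had negative differences and 2 positive ones, 9 were lower by 1.5-fold, 0 higher, and the median was -0.46. Complexes II to V had 35 of 40 negative with a median of -0.31. Their range was -0.98 to 0.61. Fatty acid oxidation genes had 6 of 21 lower, 0 higher and a median of -0.40, led by Etfa, an electron carrier of the route, at 15.08 and 14.24 (vehicle 14.79 and 15.72) and Cpt2, of the carnitine shuttle, at 10.50 and 9.79 (vehicle 10.38 and 11.31). Centring on adipocyte genes brought these 3 medians to -0.07, 0.09 and 0.00, so the complexes II to V list turned with that scaling. Mitochondrial ribosomal proteins had 8 of 74 lower and 1 higher with a median of -0.17, which turned to 0.23. Thermogenic genes had a median of -0.61 over 8 genes, or -0.04 with the floor at the 60th percentile, and their median levels were 5.43 on GW4869 sham and 4.79 on GW4869 overload, within background. Ucp1, their defining gene, stood at 3.02 and 2.34 (vehicle 2.61 and 3.20), under the floor on all arrays.

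The tissue's structural cells had lower readings on the overload array. Collagens had 8 of 15 lower and 0 higher with a median of -0.75, matrix proteins and crosslinking enzymes 11 of 21 lower and 0 higher with -0.59, and fibroblast and progenitor genes 8 of 16 lower and 1 higher with -0.57. These 3 medians kept their sign with adipocyte centring at -0.35, -0.19 and -0.17. Col1a2 and Col3a1, of fibrillar collagen, stood at 11.23 and 9.98 (vehicle 9.48 and 9.87) for Col1a2 and 14.26 and 13.48 (vehicle 12.73 and 13.50) for Col3a1. Col15a1, of vessel and fat basement membranes, stood at 9.09 and 7.65 (vehicle 9.35 and 8.30). Lamc1 and Fmod, a laminin chain and a collagen-binding protein, stood at 12.17 and 10.97 (vehicle 11.43 and 12.09) for Lamc1 and 12.12 and 10.55 (vehicle 11.43 and 10.91) for Fmod. Mfap5, Cd248 and Dpt, made by fibroblasts, stood at 10.81 and 9.04 (vehicle 10.13 and 10.56) for Mfap5, 10.63 and 9.11 (vehicle 9.66 and 9.96) for Cd248 and 15.71 and 14.64 (vehicle 15.09 and 15.29) for Dpt. For Col1a2, Col3a1 and Cd248 the GW4869 sham array was the highest of the 4.

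Matrix proteases and their inhibitors were split, with 8 of 19 lower, 3 higher and a median of -0.58. Timp2 and Timp4, inhibitors made in fat, stood at 15.40 and 14.28 (vehicle 14.29 and 14.50) for Timp2 and 15.08 and 13.65 (vehicle 14.70 and 14.60) for Timp4. Adamts5 stood at 12.71 and 11.05 (vehicle 12.76 and 12.16). Timp1, the inhibitor induced in inflamed tissue, stood at 5.98 and 9.64 (vehicle 3.79 and 3.29) and Mmp7, a protease of glandular epithelium, at 6.25 and 12.20 (vehicle 4.83 and 9.16), with the overload array high. Timp1 passed the floor only through that array. Adamts1 was the other higher member at 8.26 and 9.45 (vehicle 8.78 and 9.62).

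Endothelial genes had 7 of 18 lower, 0 higher and a median of -0.47, or -0.07 with adipocyte centring. Vwf, the clotting protein of vessel walls, stood at 8.53 and 7.15 (vehicle 7.12 and 8.69) and Cdh5, the endothelial cadherin, at 13.19 and 12.54 (vehicle 12.96 and 13.36). Mesothelial genes, from the lining of the fat pad, had 8 of 11 lower and 1 higher with a median of -1.03. Upk3b stood at 14.17 and 12.58 (vehicle 13.48 and 12.98) and Gpm6a at 13.66 and 12.23 (vehicle 13.13 and 12.66). Smooth muscle genes had 12 of 13 lower, 0 higher and a median of -2.11, and under vehicle 12 of 13 were lower with a median of -3.47. Cnn1, the smooth muscle calponin, stood at 15.31 and 10.17 (vehicle 15.23 and 6.55), and Myh11, the myosin heavy chain, at 12.41 and 8.99 (vehicle 12.71 and 8.61). Actg2, an actin of gut and duct muscle, stood at 13.62 and 11.52 (vehicle 14.66 and 4.23). Both sham arrays were high for Cnn1 and Myh11, as they were for Serpina1f and Pcp4 of the distal duct, and RNA from the muscular wall of the tract and from vessels of the fat cannot be told apart. Hspb6, a small heat shock protein of smooth muscle, followed at 13.12 and 10.39 (vehicle 12.65 and 10.74).

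Heat shock genes parted into a higher and a lower group. The same overload array held the proximal epididymis genes at a median level of 12.30, against 4.18 on GW4869 sham, 5.23 on vehicle sham and 3.65 on vehicle overload, and the part of that tissue in the stress and immune values was not tested. Of 22 genes 8 were higher and 4 lower, and the median was 0.12, or 0.52 with adipocyte centring. Hspa1a and Hspa1b, the inducible HSP70 copies, stood at 7.13 and 10.77 (vehicle 6.71 and 6.21) for Hspa1a and 6.55 and 10.31 (vehicle 6.69 and 6.04) for Hspa1b, and their probe sets may share signal. Hspb1, a small chaperone, stood at 11.10 and 14.11 (vehicle 10.25 and 10.35), and Hsp90aa1, the inducible HSP90, at 14.64 and 17.19 (vehicle 15.78 and 14.36). Hsph1, which recharges HSP70, stood at 8.85 and 11.25 (vehicle 8.13 and 8.58). The mitochondrial chaperonins Hspd1 and Hspe1, which share a promoter region, stood at 13.68 and 14.90 (vehicle 13.07 and 14.24) for Hspd1 and 10.02 and 11.31 (vehicle 9.83 and 10.38) for Hspe1. Dnaja4, an HSP70 partner, stood at 9.13 and 10.44 (vehicle 10.51 and 8.79). The GW4869 overload array was the highest for Hspa1a, Hspa1b, Hspb1, Hsp90aa1, Hsph1, Hspd1 and Hspe1, while for Dnaja4 vehicle sham was as high. The lower members were Hspb8, a chaperone of muscle, at 12.09 and 10.64 (vehicle 11.37 and 11.78), Serpinh1, the collagen chaperone, at 12.78 and 11.59 (vehicle 12.45 and 12.31). Dnajb4 stood at 11.39 and 10.70 (vehicle 12.10 and 11.30) and Chordc1 at 10.69 and 10.05 (vehicle 9.23 and 10.04). Dnajb1, the partner that heat shock induces with HSP70, stood at 8.55 and 8.74 (vehicle 9.89 and 7.90), and Bag3 at 9.34 and 9.35 (vehicle 8.79 and 8.17).

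Heat shock factor 1 binds inverted pairs of a short unit. The letters GAANNTTC and TTCNNGAA, each its own reverse complement and so read on both strands at once, were searched in the 250 bases before the start of 32851 RefSeq promoters, and 12.8% held at least 1 of them. All 7 higher heat shock genes with a promoter entry held one, and 2 of the other 13 did (Dnajb4 and Fkbp4). The 7 include Hspa1a and Hspa1b, with near-identical windows, and Hspd1 and Hspe1, which share a promoter region. They are therefore not 7 separate promoters. Hsp90aa1 and Cryab were without an entry. A match is a description of the letters and does not show that the factor was bound. The promoters of Hspa1b and Hspb1 are shown because these genes had large differences and carry the pair, with the matches in capitals, from RefSeq on GRCm38.p6. The Hspa1b window is chr17:34959239-34959488 on the minus strand and the Hspb1 window chr5:135887669-135887918 on the plus strand, each ending at the base before the transcript start. Hspa1a and Hspa1b differ at 3 of these 250 bases.
Hspa1b: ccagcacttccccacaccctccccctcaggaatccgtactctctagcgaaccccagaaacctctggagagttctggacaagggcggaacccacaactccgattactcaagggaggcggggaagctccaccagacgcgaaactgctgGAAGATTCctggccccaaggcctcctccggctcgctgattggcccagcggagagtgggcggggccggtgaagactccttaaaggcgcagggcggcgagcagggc
Hspb1: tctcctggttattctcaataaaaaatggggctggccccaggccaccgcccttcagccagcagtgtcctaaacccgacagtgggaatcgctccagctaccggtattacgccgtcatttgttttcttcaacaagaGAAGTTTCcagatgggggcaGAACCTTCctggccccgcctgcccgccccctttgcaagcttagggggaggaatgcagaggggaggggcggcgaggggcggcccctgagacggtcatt

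Genes of the unfolded protein response, which the endoplasmic reticulum calls on when secretory proteins misfold, had 6 of 20 higher, 0 lower and a median of 0.39. Hspa5, the HSP70 of that compartment, stood at 17.12 and 18.55 (vehicle 17.52 and 16.16), and Calr, calreticulin, at 16.69 and 17.53 (vehicle 17.23 and 16.18). Pdia6, a disulfide isomerase, stood at 13.36 and 14.22 (vehicle 13.55 and 13.15) and Herpud1, of the degradation arm, at 12.86 and 13.50 (vehicle 13.41 and 12.57). Ddit3, the transcription factor CHOP, stood at 8.97 and 10.33 (vehicle 9.73 and 9.22) and Syvn1, a ubiquitin ligase of that compartment, at 7.69 and 8.82 (vehicle 7.98 and 8.60). For Hspa5 and Calr the order of the arrays was GW4869 overload, vehicle sham, GW4869 sham and vehicle overload. Xbp1, the regulator switched on by splicing, stood at 15.34 and 15.32 (vehicle 14.45 and 15.25) and Dnajb9 at 13.15 and 13.40 (vehicle 12.80 and 12.48). Edem1 stood at 11.64 and 11.57 (vehicle 11.13 and 11.71). These 3 differed by -0.02, 0.24 and -0.07.

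The ER stress element, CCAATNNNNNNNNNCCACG read on both strands, stood in 0.113% of the 32851 windows, 37 in all. It was in 4 of the 6 higher genes (Hspa5, Calr, Pdia6 and Syvn1) and in 4 of the 12 others with an entry (Canx, Creld2, Dnajc3 and Hsp90b1). The promoters of Hspa5 and Calr are printed as examples, with the element in capitals. The Hspa5 window is chr2:34771840-34772089 on the plus strand and the Calr window chr8:84846932-84847181 on the minus strand of GRCm38.p6, and in Calr the element lies in reverse orientation.
Hspa5: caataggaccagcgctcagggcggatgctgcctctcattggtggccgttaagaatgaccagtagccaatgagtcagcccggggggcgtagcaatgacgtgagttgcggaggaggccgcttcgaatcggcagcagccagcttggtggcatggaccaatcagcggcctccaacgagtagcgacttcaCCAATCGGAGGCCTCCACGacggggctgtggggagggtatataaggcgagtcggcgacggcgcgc
Calr: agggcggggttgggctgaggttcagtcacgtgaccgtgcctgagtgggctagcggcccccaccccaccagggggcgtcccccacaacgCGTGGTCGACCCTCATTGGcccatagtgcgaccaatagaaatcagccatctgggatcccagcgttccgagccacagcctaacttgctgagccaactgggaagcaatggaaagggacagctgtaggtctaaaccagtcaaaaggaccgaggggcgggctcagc

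Of the oxidative stress list 7 of 23 genes were higher and 2 lower, with a median of 0.25, or 0.04 over its 19 fat-expressed members. Gclm, the regulatory subunit that speeds glutathione synthesis, stood at 10.83 and 14.20 (vehicle 11.63 and 11.07), a difference of 3.37, and Gclc, its catalytic partner, at 9.03 and 9.80 (vehicle 8.73 and 8.97). Srxn1, sulfiredoxin, stood at 7.28 and 9.98 (vehicle 7.47 and 5.93), and Txnrd1, thioredoxin reductase, at 11.49 and 13.09 (vehicle 10.95 and 11.71). Gsr, which regenerates glutathione, stood at 11.52 and 12.22 (vehicle 11.27 and 11.72) and Txn1, thioredoxin, at 15.88 and 16.56 (vehicle 15.47 and 15.79). Nqo1, a quinone reductase that NRF2 induces, stood at 5.85 and 7.16 (vehicle 7.27 and 6.74), no higher than on vehicle sham, and Hmox1, heme oxygenase, at 11.48 and 11.72 (vehicle 9.20 and 10.11). Gpx1 and Gsta3 were the lower ones at 17.83 and 17.13 (vehicle 17.46 and 17.54) for Gpx1 and 15.14 and 14.35 (vehicle 15.02 and 15.16) for Gsta3. The letters TGACNNNGC, the core of the antioxidant element on either strand, were in 10.2% of all windows, in 2 of the 5 higher genes with an entry (Gclm and Txnrd1) and in 3 of the 13 others.

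Amino acid carriers led the list of the amino acid response. Slc7a5, the light chain of the large neutral amino acid carrier, stood at 6.65 and 13.61 (vehicle 9.79 and 5.77), and Slc3a2, the heavy chain it pairs with, at 15.76 and 17.09 (vehicle 15.58 and 15.63). Slc7a11, the cystine carrier that feeds glutathione synthesis and pairs with the same heavy chain, stood at 4.78 and 9.78 (vehicle 5.55 and 5.17). Atf4, the factor that drives this response, stood at 11.98 and 13.37 (vehicle 11.28 and 11.75), and Wars, the tryptophan tRNA synthetase, at 11.31 and 13.05 (vehicle 11.80 and 9.23). Mthfd2, of mitochondrial folate, stood at 7.78 and 9.51 (vehicle 8.66 and 7.52). For Slc7a5 and Wars vehicle sham was the next array. Other ATF4 targets stood close on the GW4869 pair, among them Asns, asparagine synthetase, at 14.09 and 14.23 (vehicle 14.20 and 14.85), Trib3 at 6.17 and 6.63 (vehicle 6.11 and 6.06). Psat1, of serine synthesis, stood at 12.58 and 12.38 (vehicle 13.11 and 13.16), while Phgdh, the first enzyme of serine synthesis, was lower at 13.36 and 12.20 (vehicle 13.04 and 13.47). In all 10 of 23 were higher and 2 lower with a median of 0.28.

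Metal genes belonged to the higher side as well. Mt2 and Mt1, metallothioneins that bind zinc and whose sequences are close, stood at 18.29 and 19.68 (vehicle 16.98 and 16.54) for Mt2 and 18.86 and 19.72 (vehicle 18.70 and 18.35) for Mt1. Slc39a14, a zinc and iron importer of inflamed tissue, stood at 8.49 and 10.24 (vehicle 7.58 and 8.59). Slc39a8, another zinc importer, was lower at 14.08 and 12.02 (vehicle 13.68 and 11.35), with both sham arrays high.

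The protein-making and protein-degrading machinery had small positive differences. Of 58 cytosolic ribosomal proteins 54 had positive differences, 12 were higher by 1.5-fold, 0 lower, and the median was 0.35 with a range from -0.25 to 1.05. Of 36 proteasome subunits 33 had positive differences, 15 were higher, 0 lower, and the median was 0.46 with a range from -0.11 to 1.31. With the trend removed the medians were 0.46 for the ribosomal list and 0.53 for the proteasome list. Centring on all genes or on adipocyte genes raises every difference, so it could not turn either list. Under vehicle the 2 medians were -0.03 and 0.29, beside 0.26 over all genes above the floor. Lysosomal genes had 0 higher and 0 lower of 26, all between -0.42 and 0.49. Cell cycle genes had 3 higher and 2 lower of 18 with a median of -0.05, which turned to 0.34 with adipocyte centring.

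Of the cytokine list 9 of 19 genes were higher on the overload array and 2 lower, with a median of 0.38, and of the chemokine list 10 of 23 were higher and 2 lower, with 0.38. Over all measured genes the medians were 0.61 for the cytokine list and 0.47 for the chemokine list. Il1rn of the first list and Ccl3, Cxcl10 and Cx3cl1 of the second passed the floor only through the GW4869 overload array. Both counts are therefore partly set by the floor. Several of the named genes read below the 95th percentile of negative controls on all 4 arrays, so their differences are bounds at best. Il1b, the cytokine released by activated macrophages, stood at 4.88 and 9.88 (vehicle 4.02 and 5.13), and Il6 at 3.42 and 7.88 (vehicle 2.74 and 4.27). Tnf stood at 3.74 and 5.97 (vehicle 2.36 and 3.13). GW4869 overload was the only array clear of the floor by more than 1 log2 unit for these 3. Il6 and Tnf had means over the 4 arrays under the floor, so they are not among the counted genes. Ccl2, which recruits monocytes, stood at 7.33 and 10.94 (vehicle 5.11 and 6.34), a difference of 3.61. Ccl7, its neighbour in function, stood at 7.45 and 9.45 (vehicle 5.21 and 5.41). Ccl3 stood at 5.96 and 9.65 (vehicle 3.49 and 3.74). Of the neutrophil attractants, Cxcl1 stood at 4.10 and 6.34 (vehicle 3.47 and 3.94) and Cxcl2 at 3.31 and 6.11 (vehicle 2.53 and 2.87). Both had means under the floor and are not counted either. Il4ra, the receptor chain for IL-4 and IL-13, stood at 9.58 and 12.04 (vehicle 8.57 and 9.73), and Osmr, the oncostatin M receptor, at 9.26 and 10.94 (vehicle 8.26 and 9.30). Il1rn, the decoy ligand that blocks IL-1, stood at 5.84 and 8.24 (vehicle 2.54 and 3.75). Of the genes named here, Il6, Tnf, Cxcl1, Cxcl2 and Il1rn stayed below that control percentile on GW4869 overload. Under vehicle the medians of the cytokine and chemokine lists were 0.84 and 0.52, with 13 and 11 higher and 0 lower in each. Over all genes above the floor the vehicle median was 0.26.

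NF-kappaB targets and STAT3 feedback genes had 12 of 14 higher and 2 lower with a median of 1.12. The inhibitors that NF-kappaB induces to end its own signal were among them, with Nfkbia at 11.27 and 12.45 (vehicle 9.69 and 10.66) and Tnfaip3 at 9.46 and 10.58 (vehicle 7.19 and 8.08). Tnfaip2 stood at 8.79 and 12.13 (vehicle 7.85 and 7.94), and Icam1, which lets leukocytes adhere, at 6.83 and 9.01 (vehicle 5.47 and 6.44). Birc3, an inhibitor of apoptosis, stood at 11.57 and 12.85 (vehicle 9.87 and 10.50) and Bcl3 at 6.91 and 8.12 (vehicle 4.11 and 5.79). Socs3, the feedback inhibitor of STAT3, stood at 3.19 and 6.52 (vehicle 2.54 and 3.26). Its mean over the 4 arrays was under the floor, so it is not among the 14. The 2 lower ones were the prostaglandin enzymes Ptgs2 and Ptges at 14.30 and 6.18 (vehicle 14.26 and 2.52) for Ptgs2 and 12.39 and 10.55 (vehicle 12.69 and 10.20) for Ptges, high on both sham arrays as the distal duct genes were. Among immediate early genes Junb stood at 6.80 and 9.08 (vehicle 5.56 and 5.46). Ier3 stood at 8.46 and 9.89 (vehicle 5.69 and 6.77), whereas Egr1 stood at 10.14 and 9.95 (vehicle 7.52 and 8.05) and Atf3 at 8.85 and 8.18 (vehicle 7.15 and 7.33). That list had 7 of 26 higher and 3 lower with a median of 0.25.

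Neutrophil genes had 7 of 10 higher and 1 lower with a median of 1.96, or 0.61 over the 19 measured. S100a8 and S100a9, abundant neutrophil proteins, stood at 4.90 and 8.63 (vehicle 3.44 and 5.14) for S100a8 and 4.92 and 7.94 (vehicle 3.50 and 3.53) for S100a9. Csf3r, the G-CSF receptor, stood at 5.83 and 8.72 (vehicle 4.93 and 5.98). S100a8, S100a9 and Csf3r were highest on GW4869 overload but below the 95th percentile of negative controls there, 9.27, and 0 genes of the list reached log2 10 on any array. S100a8 and S100a9 passed the floor only through the GW4869 overload array. Of the granule genes made earlier in the bone marrow, Mpo stood at 4.37 and 3.30 (vehicle 3.56 and 4.18) and Camp at 2.61 and 2.43 (vehicle 2.60 and 2.38), both under the floor. Macrophage genes had 5 higher and 5 lower of 21. The higher ones were Fcgr1, a high-affinity antibody receptor, at 7.35 and 9.06 (vehicle 5.42 and 7.60), Adgre1, which encodes F4/80, at 9.52 and 11.02 (vehicle 7.97 and 8.47). Msr1 stood at 7.07 and 8.13 (vehicle 5.77 and 5.08), and Cd14 at 8.37 and 9.42 (vehicle 6.64 and 7.50). Itgam stood at 10.81 and 11.65 (vehicle 8.55 and 9.29). The lower ones included the resident-type genes Folr2 and Lyve1 at 12.83 and 11.44 (vehicle 10.89 and 10.90) for Folr2 and 12.65 and 11.72 (vehicle 10.96 and 10.93) for Lyve1. Clec10a stood at 11.39 and 10.42 (vehicle 9.77 and 10.43), and Lyz1, which is close in sequence to Lyz2, at 12.52 and 11.22 (vehicle 10.53 and 11.08). Retnla, a product of alternatively activated macrophages, stood at 16.64 and 14.37 (vehicle 15.51 and 15.72), a difference of -2.27. Adgre1, Folr2 and Lyve1 were each higher on both GW4869 arrays than on both vehicle arrays.

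Genes of lipid-laden macrophages had 3 of 15 higher, 4 lower, 8 between and a median of -0.30 that turned to 0.10 with adipocyte centring. Gpnmb stood at 13.08 and 14.53 (vehicle 7.66 and 9.50) and Atp6v0d2 at 10.49 and 12.62 (vehicle 6.55 and 8.20), while Trem2, a lipid-sensing receptor, and Mmp12 stood at 8.54 and 7.45 (vehicle 6.56 and 6.75) for Trem2 and 14.62 and 13.55 (vehicle 12.57 and 13.36) for Mmp12. Antigen presentation genes had 0 higher and 2 lower of 17. Mast cell genes had 4 of 7 lower and 2 higher with a median of -1.51, or -0.27 over the 11 measured. Cpa3, a mast cell protease, stood at 11.29 and 9.61 (vehicle 9.47 and 10.65). The 2 higher ones were Kit, with the largest difference of the list, at 6.04 and 8.79 (vehicle 6.01 and 6.25) and Hdc at 7.81 and 8.41 (vehicle 7.09 and 7.01). T, B and NK cell genes were mostly under the floor, with 5 of 17 above it and Cd3e, under it, at 4.63 and 4.69 (vehicle 4.42 and 4.45). Klrb1c at 4.31 and 7.10 (vehicle 4.54 and 4.88) and Cd79a at 5.53 and 6.88 (vehicle 4.81 and 4.49) were higher. Klrb1c passed the floor only through the GW4869 overload array. Cd2 was lower at 5.80 and 5.19 (vehicle 4.89 and 6.26).

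Interferon-induced genes had 12 of 22 higher and 1 lower with a median of 0.66, and under vehicle 13 higher and 0 lower with 0.69. Beside this, the vehicle median was 0.26 over all genes above the floor, and 31.5% of fat-expressed genes were higher under vehicle. The GW4869 count includes Cxcl10, which passed the floor only through the GW4869 overload array. Ifit3 stood at 10.61 and 12.16 (vehicle 9.41 and 9.92), and Irgm1 at 8.72 and 9.88 (vehicle 7.72 and 8.66). Irf7, the factor that amplifies the response, stood at 7.75 and 8.77 (vehicle 5.57 and 6.50). Acute phase genes went both ways, with 8 of 15 higher and 6 lower. Their median was 1.02, or 0.37 over the 22 measured. The higher ones include Lcn2 and the fibrinogen chains Fgg and Fga. Fgg and Fga passed the floor only through the GW4869 overload array, so that count is partly set by the floor. Serpina3n, a protease inhibitor, stood at 15.11 and 16.66 (vehicle 13.98 and 14.50), and Saa3 at 9.90 and 12.06 (vehicle 7.55 and 8.53). Cp, ceruloplasmin, stood at 14.20 and 15.34 (vehicle 13.28 and 14.31). Hp, haptoglobin, stood at 19.14 and 19.37 (vehicle 18.12 and 18.76), whereas Lbp, which carries endotoxin, stood at 14.02 and 13.08 (vehicle 13.75 and 13.10). Complement genes had 7 of 19 lower and 2 higher with a median of -0.30, which turned to 0.09 with adipocyte centring. C6 and C7, of the membrane attack complex, stood at 12.32 and 10.40 (vehicle 10.52 and 12.42) for C6 and 15.04 and 13.99 (vehicle 13.04 and 14.76) for C7. Clu, clusterin, a complement inhibitor that epididymis secretes in quantity, stood at 16.14 and 19.40 (vehicle 16.76 and 14.68).

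**Figure D4:**
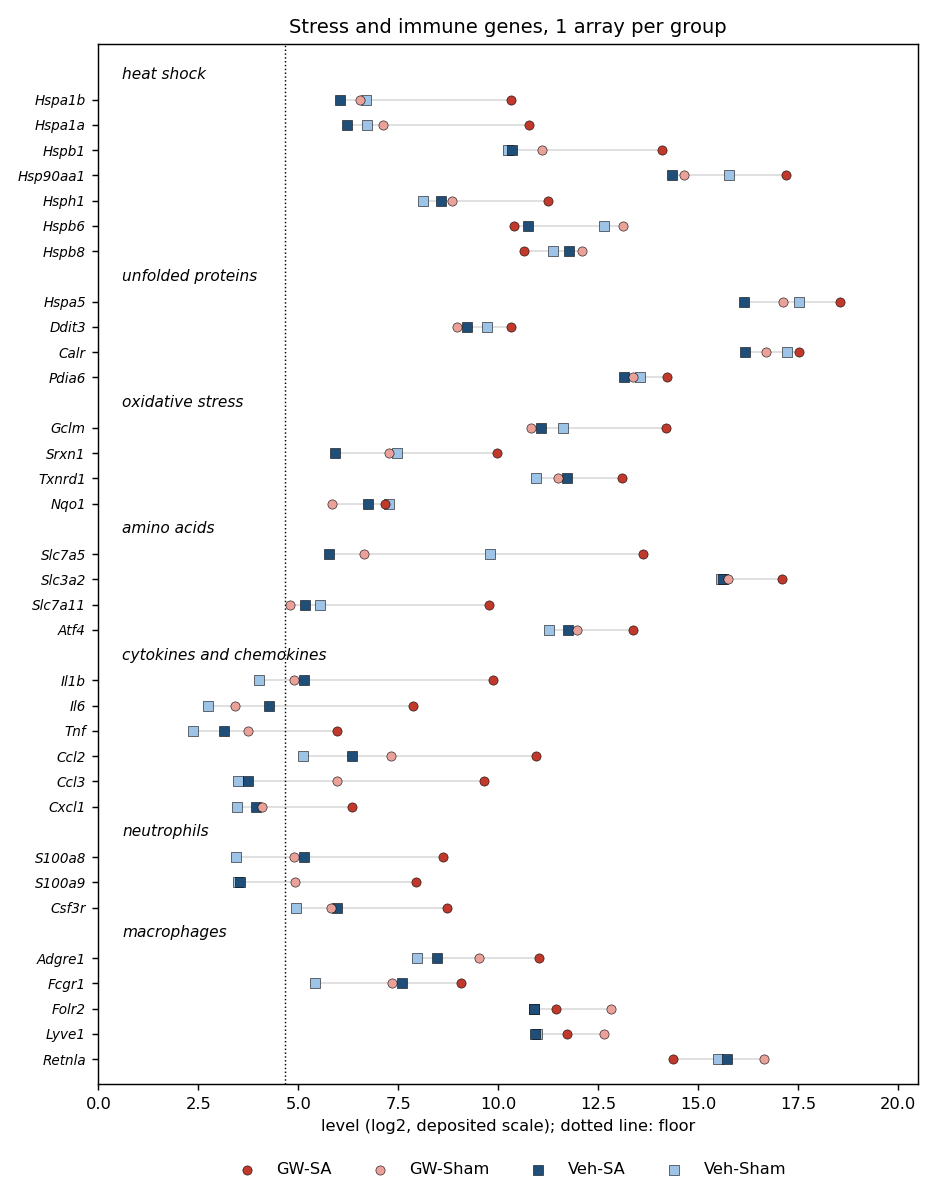
Levels (log2, deposited scale) of stress and immune genes on the 4 arrays, with the floor as a dotted line. The GW-SA point (red circle) stands alone to the right for Hspa1b, Gclm, Slc7a5, Il1b, Il6 and S100a8, while Hspb6, Folr2, Lyve1 and Retnla have the GW-Sham point on the right.

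Clock genes had 5 of 15 higher and 2 lower with a median of 0.08. Dbp and Nr1d2, which peak together in the daily cycle, stood at 10.97 and 13.24 (vehicle 12.71 and 14.69) for Dbp and 9.54 and 10.66 (vehicle 9.90 and 11.52) for Nr1d2. Arntl, the clock activator that peaks at the opposite time, stood at 10.45 and 8.87 (vehicle 8.89 and 7.95). For Dbp and Nr1d2 both overload arrays were higher than their own sham array. Per2 stood at 6.40 and 6.48 (vehicle 5.41 and 7.38) and Nr1d1 at 11.79 and 12.01 (vehicle 12.22 and 13.31). Bhlhe41, a repressor of the loop, stood at 7.47 and 10.46 (vehicle 7.61 and 8.57). The sources used here do not give the hour of tissue collection, and its part in these values was not tested.

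The sphingomyelinase that GW4869 inhibits was itself measured. Smpd3, which encodes neutral sphingomyelinase 2, stood at 9.23 and 7.94 (vehicle 7.70 and 8.09), a difference of -1.28, with GW4869 sham the highest array. On GW4869 sham Smpd3 lay close to the 95th percentile of negative controls, 9.18 there, and on the other arrays below it. Its difference is therefore a bound at best. Smpd1, the acid enzyme of lysosomes, stood at 9.67 and 9.14 (vehicle 8.70 and 9.06) and Smpd2 at 8.38 and 8.64 (vehicle 8.31 and 8.27). Sptlc2, of the first step of ceramide synthesis, stood at 12.19 and 12.91 (vehicle 11.43 and 11.41) and Cers6, a ceramide synthase, at 11.44 and 12.14 (vehicle 10.93 and 11.31). The list had 2 of 23 higher and 2 lower with a median of -0.28, which turned to 0.12 with adipocyte centring. Genes of vesicle formation and release had 4 of 26 higher and 2 lower with a median of -0.05, which turned to 0.35 with adipocyte centring. Of the tetraspanins, Cd9 stood at 10.44 and 12.09 (vehicle 9.20 and 9.35) and Cd82 at 12.34 and 13.74 (vehicle 11.67 and 11.91). Sdc4, a syndecan, stood at 10.75 and 11.83 (vehicle 8.62 and 9.93), while the vesicle proteins Cd63, Cd81, Tsg101 and Pdcd6ip stood at 13.62 and 13.83 (vehicle 12.91 and 13.20) for Cd63, 18.33 and 18.03 (vehicle 18.10 and 18.03) for Cd81, 12.95 and 12.60 (vehicle 12.88 and 12.90) for Tsg101 and 13.50 and 13.69 (vehicle 13.21 and 13.14) for Pdcd6ip.

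Set beside the vehicle comparison, which shares no array with the GW4869 one, the fat-expressed genes had a median of 0.32 there, with 31.5% higher and 8.15% lower. The vehicle median was 0.26 over all genes above the floor and 0.40 over mature adipocyte genes, and vehicle values were not re-centred. The choice of fat-expressed genes uses the vehicle overload level and so leans the vehicle comparison upward. Of the 561 fat-expressed genes lower under GW4869, 228 were higher under vehicle (40.6%) and 37 lower (6.60%). Of the 214 higher under GW4869, 51 were higher under vehicle (23.8%) and 38 lower (17.8%). These shares are a description of 4 arrays, and the difference between the comparisons was not tested. Lists with a positive vehicle median and a negative GW4869 median included lipolysis, insulin and glucose handling, fatty acid oxidation, adipokines, collagens and endothelium, of which the first 2 turned positive under GW4869 with adipocyte centring. Neutrophil, interferon, NF-kappaB, cytokine and chemokine lists had positive medians in both, and the smooth muscle list negative medians in both. Vehicle medians of the lists of opposite sign were 0.60, 0.75, 0.84, 0.25, 0.53 and 0.86 in the order named. Those of the lists positive in both were 0.62, 0.69, 0.38, 0.84 and 0.52. The adipokine and NF-kappaB values did not exceed the 0.40 of mature adipocyte genes.

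**Figure D5:**
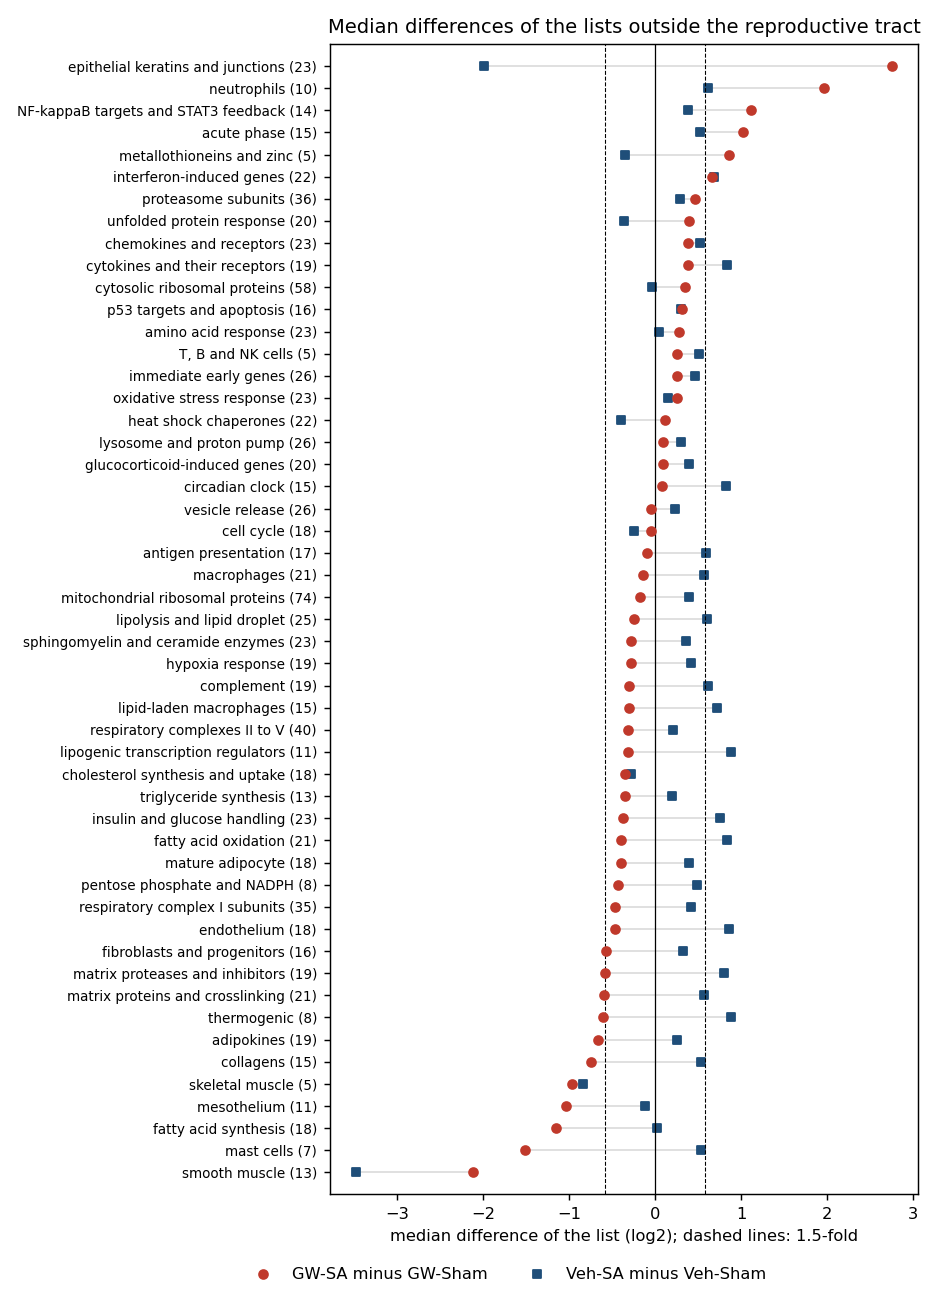
Median log2 difference of each list outside the reproductive tract, with the number of genes above the floor in parentheses, for GW-SA minus GW-Sham (red circles) and Veh-SA minus Veh-Sham (blue squares), with dashed lines at 1.5-fold. The epithelial list lies at 2.75 and -1.99, fatty acid synthesis at -1.15 and 0.02, and smooth muscle at -2.11 and -3.47.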

How the data were processed

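Epididymal fat RNA of 4 groups of male mice, 1 array each, was measured on Clariom S Mouse arrays. The authors deposited log2 values in 1 table, and the submitters' processing notes name RMA and Partek, without versions or a genome build. The values reach higher than RMA values usually do, and the construction of the scale is not stated. RMA as usually run sets the arrays to 1 distribution, so a large change in 1 group of transcripts can shift others. The table held 22142 transcript clusters, 2615 of them without a gene name. In the platform annotation, which can be old, 19572 probe sets named 1 gene. The probe set with the highest mean was kept for each of 19505 genes, with a floor at the 40th percentile of gene means.

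Named genes were the 15 highest and 15 lowest fat-expressed differences, the 12 highest and 6 lowest among tract genes or genes under log2 10 on vehicle overload, and in each list up to 6 members with the largest differences plus members whose role was needed for pathway order. Predicted models and receptors for odour, pheromone and taste were not named. Genes and lists were chosen with earlier results of these data known. Log2 differences were computed with pandas 2.3.3 and numpy 2.4.6 in Python 3.11.15, with a lowess from statsmodels 0.14.6 as an alternative, and the code was tested on simulated data. Alternatives changed the centring, the floor, the fold threshold, the probe set rule, the tract genes and the level that defines fat-expressed genes.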

Additional observations from a re-analysis of the deposited data

Results flagged for a closer look

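Several differences ran one way under GW4869 and the other way under vehicle. With 1 array in each group these opposite directions were not tested, and the 2 comparisons share no array. Among lists, the proximal epididymis median was 8.68 under GW4869 and -1.24 under vehicle, the seminal vesicle and prostate median 4.56 and -0.97, and the sperm and testis median 0.93 and -10.53. The epithelial keratin and junction median was 2.75 and -1.99. The thermogenic median was -0.61 and 0.88 over 8 genes that do not include Ucp1. The median levels of these 8 were 4.79, 5.43, 5.30 and 6.11 on GW4869 overload, GW4869 sham, vehicle overload and vehicle sham, all within the range of background probes, and the GW4869 median was -0.04 with a floor at the 60th percentile.

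Among fat-expressed genes higher under GW4869, the difference was 5.51 and under vehicle -1.57 for Lcn2, 2.56 and -1.42 for Hsp90aa1, and 2.55 and -1.88 for Tmem64. It was 2.16 and -2.50 for Got2, 2.15 and -1.16 for Pls3, and 2.13 and -1.08 for Sat1. Among those lower under GW4869, it was -2.49 and 1.79 for Angpt1 and -2.46 and 2.41 for Cyp2f2. The near-identical chemokine copies Ccl21b and Ccl21c both had -2.32 and 1.24, and Ccl21a had -2.15 and 0.84.

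Transcript clusters without a gene name take no part in the counts of genes. Of 2615 such clusters, 6 stood at least 4 log2 units above the 3 other arrays on GW4869 overload, against 0 on GW4869 sham, 0 on vehicle overload and 136 on vehicle sham.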

How the results depend on the processing

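No paired analysis was possible because each group has 1 array. No alternative turned the sign of a result counted here as past 1.5-fold. For the centrings on all genes and on mature adipocyte genes this was fixed in advance, because each adds less than 0.585 to every difference. As deposited, 1564 genes were higher and 1787 lower, 214 and 561 among fat-expressed genes, and 9 lists had a median at least 1.5-fold higher and 9 lower. Centring on mature adipocyte genes, which adds 0.40 to every difference by construction, gave 3858 and 652 genes, 877 and 178 fat-expressed genes, and 19 and 4 lists. It raised the share of higher genes among those past 1.5-fold from 46.7% to 85.5%, and among fat-expressed genes from 27.6% to 83.1%. A floor at the 60th percentile left 825 and 1144 genes and no floor gave 2365 and 2862, as the number of genes tested changed. A 2-fold threshold left 727 and 624 genes, and 67 and 171 fat-expressed ones. Defining fat-expressed genes from log2 8 on vehicle overload gave 516 and 932, and from log2 12 gave 78 and 279. All-gene centring, trend removal, the floor at the 30th percentile, values set to the floor, averaging of probe sets and leaving out tract genes kept these counts within 1.5 times of the first ones. Raising values to the floor moved 22 of 345 single genes by 1.5-fold or more, and of 56 list medians 3, 5, 6 and 2 moved that far with the floor at the 30th percentile, at the 60th, with no floor and with values raised to it, some of them under several of these settings. Low signal limits every gene read near background on 1 of the 2 arrays.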

Other observations

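Hypoxia-response genes were split on the GW4869 pair. Of 19 above the floor 4 were higher and 5 lower, with a median of -0.28 that turned to 0.12 with centring on mature adipocyte genes. The glycolytic enzymes Ldha and Aldoa stood at 16.14 and 15.44 (vehicle 15.85 and 15.69) for Ldha and 16.44 and 15.83 (vehicle 16.17 and 16.24) for Aldoa, both lowest on GW4869 overload. Adm, the gene of the vessel-relaxing peptide adrenomedullin, stood at 9.11 and 10.21 (vehicle 7.25 and 8.73), higher on both overload arrays than on the sham array of its pair. P4ha2, a collagen prolyl hydroxylase, stood at 8.52 and 6.99 (vehicle 7.02 and 7.42).

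Cell death genes had 6 of 16 higher and 1 lower with a median of 0.31. Bcl2l11, which encodes the pro-death protein BIM, stood at 5.05 and 7.12 (vehicle 4.93 and 4.58), and Bcl2a1b and Bcl2a1a, survival genes of leukocytes with near-identical sequences, stood at 7.55 and 9.37 (vehicle 5.36 and 6.39) and 6.78 and 8.88 (vehicle 5.40 and 5.50). Mcl1, another survival gene, stood at 12.06 and 12.84 (vehicle 11.49 and 12.07), and Phlda3, a p53 target that restrains AKT, at 8.99 and 7.50 (vehicle 8.33 and 9.13). Genes that glucocorticoids induce had 7 of 20 higher and 3 lower with a median of 0.09. Fkbp5, a sensitive glucocorticoid target, stood at 14.36 and 14.51 (vehicle 12.84 and 13.15) and Tsc22d3, which encodes GILZ, at 11.42 and 10.87 (vehicle 10.55 and 10.39), while Cebpd and Sgk1 stood at 10.16 and 11.31 (vehicle 8.40 and 9.62) and 9.22 and 10.23 (vehicle 8.02 and 8.77). For Fkbp5 both GW4869 arrays were above both vehicle arrays. Skeletal muscle genes were mostly under the floor, with 5 of 18 above it and Acta1 at 8.76 and 7.81 (vehicle 8.40 and 7.44). Leydig and Sertoli cell genes had 2 of 6 higher and 1 lower, with a median of -0.08 that turned positive with adipocyte centring, against -5.35 under vehicle.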
